A study of Homo sapiens with 2 samples.

Results

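Matrix metalloproteinases (MMP), ADAM and ADAMTS proteases and ADAMTS-like proteins form the families described here. Members were taken by gene symbol: every symbol made of MMP, ADAM, ADAMTS or ADAMTSL and a number that had 1 row in the deposited table. This gave 56 genes of 18083 symbols with 1 row: 17 MMP, 16 ADAM, 18 ADAMTS and 5 ADAMTSL genes. The RNA came from U2OS, a long-established line derived from a human osteosarcoma and labelled as bone. The cultures were asynchronous and had been exposed for 18 h to aphidicolin at 0.3 µM, a drug that slows replication by blocking DNA polymerases. Both libraries are replicates of that 1 group, and no untreated library was analysed here, so the values are levels in treated cells and no response to the drug was tested. Nothing in the labels ties the replicates to separate cultures. Their spread, and any difference called between them, may therefore be technical. The p-values of the exact test below set that difference against counting error only.

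The active proteases among these proteins belong to the metzincins, enzymes that hold a zinc ion in the active site. MMPs cut collagens and other matrix proteins and are made as inactive precursors whose propeptide has to be removed, and TIMP proteins block the active enzymes. ADAMs are membrane proteins, many of which release the outer parts of receptors and growth factors from the cell surface, while others have lost the active site and act in adhesion. ADAMTS proteases are secreted, carry thrombospondin repeats and cut proteoglycans, procollagens and von Willebrand factor, and ADAMTS-like proteins have the repeats without the protease domain. Bone cells and the tumours derived from them are well known for matrix remodelling by these enzymes.

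Levels are given in RPKM, reads scaled to the length of the exons and to the depth of the library, so that genes of different length can be set side by side. A gene is called expressed at 1 RPKM or more in both libraries. Reads per gene were recovered from the RPKM, on totals of 13227805 reads in replicate 1 and 13020149 in replicate 2. The 56 genes took 0.235% of the reads in replicate 1 and 0.242% in replicate 2. Means are followed by the SD over the 2 libraries. In bulk RNA, fewer cells that express a gene and less of its RNA per cell cannot be told apart.

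Promoters of 5 members are printed because they differ in level, from 54.9 RPKM in MMP14 to 0.347 in MMP10, and in the motifs they hold. MMP14 (chromosome 14) had the highest level among members with a promoter entry, ADAM10 (chromosome 15) and ADAM15 (chromosome 1) are expressed sheddases, MMP7 is expressed at a low level, and MMP10, in the same gene cluster on chromosome 11, is below the limit. Each is the 110 bases before the RefSeq start, 5′ to 3′ on the gene's strand, in GRCh38.p14. Where RefSeq gave several entries for a gene, the first was used. The bases printed for ADAM10 and ADAM15 lie inside the spans that GENCODE gives these genes, 58588807 to 58749978 and 155050566 to 155062775. Capitals mark GGGCGG, the binding sequence of SP1-type factors, TATAAA, the TATA box, and TGAGTCA, the binding sequence of AP-1. ADAM10 has no capitals because its GGGCGG, at position -193, lies outside the printed bases. RefSeq gave an entry for 34 of the 56 members.
MMP14, chr14:22836475-22836584, plus strand: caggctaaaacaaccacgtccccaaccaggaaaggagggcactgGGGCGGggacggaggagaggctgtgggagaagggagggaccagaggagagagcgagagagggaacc
ADAM10, chr15:58749708-58749817, minus strand: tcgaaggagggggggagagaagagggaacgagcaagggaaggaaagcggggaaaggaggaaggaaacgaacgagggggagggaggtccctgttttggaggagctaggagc
ADAM15, chr1:155051206-155051315, plus strand: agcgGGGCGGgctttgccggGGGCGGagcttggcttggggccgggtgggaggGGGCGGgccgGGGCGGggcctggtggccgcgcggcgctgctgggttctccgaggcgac
MMP7, chr11:102530748-102530857, minus strand: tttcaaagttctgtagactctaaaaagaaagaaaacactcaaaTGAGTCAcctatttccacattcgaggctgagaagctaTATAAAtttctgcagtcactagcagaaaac
MMP10, chr11:102780629-102780738, minus strand: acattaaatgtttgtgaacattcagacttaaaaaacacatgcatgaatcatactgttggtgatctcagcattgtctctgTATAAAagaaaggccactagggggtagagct

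In all, 30 of the 56 members (53.6%) were expressed, where the share over all genes in the table was 66.7%. At 10 RPKM or more in both libraries stood 10 members, where 27.7% of all genes did. The median member had 1.49 RPKM and the median gene 3.53 RPKM, or 1.31 and 2.18 on the log2(RPKM + 1) scale. The median exonic length was 5706.5 bases in members and 4804 over all genes, members included. At 1 CPM, which is not divided by length, 76.8% of members and 79.9% of genes passed. At 1 TPM, which is divided by length and here is a lower limit than 1 RPKM, 76.8% of members and 81.6% of genes passed. The part of length in these shares was not tested. A few genes carried most of the RNA: the 10 highest members held 76.2% of the summed RPKM of all 56, and MMP2, MMP14 and ADAM9 held 44.2%. MMP genes held 50.2% of that sum, ADAM genes 31.8%, ADAMTS genes 14.1% and ADAMTSL genes 3.86%.

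**Figure D1:**
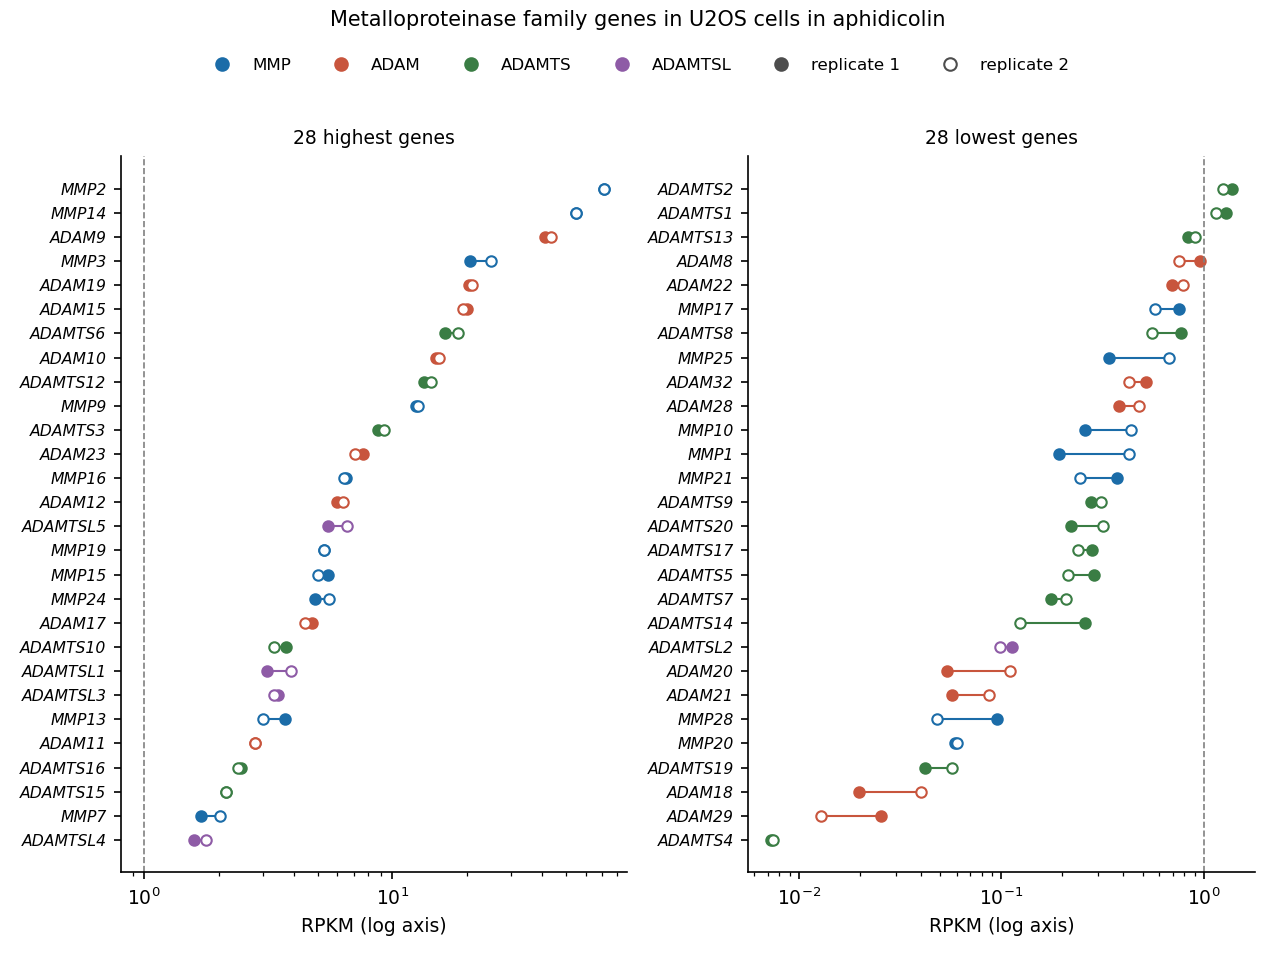
RPKM of the 56 members on a log axis, with replicate 1 as filled and replicate 2 as open points joined by a line, coloured by family, and a dashed line at 1 RPKM. MMP2 leads at 71.3 RPKM and ADAMTS4 is last at 0.00737. The 2 panels cover different ranges of RPKM.

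The gelatinases, which cut denatured collagen and type IV collagen, were both expressed. MMP2 was the highest member, at 71.2 RPKM in replicate 1 and 71.3 in replicate 2 (4432 and 4370 reads). MMP9 had 12.5 and 12.7 RPKM. MMP2 therefore stood 5.71 times above MMP9 in replicate 1 and 5.62 times in replicate 2. MMP2 lies on chromosome 16 from 55389700 to 55506691. Exons of MMP9 share 18.4% of their bases with the antisense gene SLC12A5-AS1, which stood at 0.560 RPKM, and whether reads were assigned by strand is not given in the sources used here.

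Membrane-type MMPs are anchored in the plasma membrane and cut matrix next to the cell. MMP14, which also activates the precursor of MMP2 in a complex with TIMP2, had 54.8 RPKM in replicate 1 and 55.0 in replicate 2. It lies on chromosome 14 from 22836557 to 22849027 and was the second highest member. MMP16 followed at 6.45 ± 0.093 RPKM, MMP15 at 5.26 ± 0.35 and MMP24 at 5.21 ± 0.45. Library values of MMP15 and MMP24 overlapped, so their order is within the spread. The members with a lipid anchor were below the limit, MMP17 at 0.666 ± 0.13 and MMP25 at 0.504 ± 0.23 RPKM. MMP25 had 19 reads in replicate 1 and 37 in replicate 2, and 35.2% of its exonic bases lie in MMP25-AS1. For MMP24 the share in other genes is 21.8%, with MMP24OS at 1.26 RPKM and AL121753.2 not listed.

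Collagenases cut fibrillar collagen. MMP13, the collagenase of hypertrophic cartilage and bone, had 3.68 and 3.01 RPKM (138 and 111 reads). MMP1 had 0.192 and 0.429 RPKM, from 5 and 11 reads, and MMP8 was not listed. Among stromelysins, MMP3, which cuts many matrix proteins and activates other MMPs, had 20.6 and 25.0 RPKM. MMP10 had 6 and 10 reads, or 0.258 and 0.437 RPKM, and MMP11 was not listed. The level of MMP3 was 79.7 times that of MMP10 in replicate 1 and 57.3 times in replicate 2, with the few reads of MMP10 limiting both ratios. The matrilysin MMP7 stood at 1.69 and 2.02 RPKM. MMP19 stood at 5.29 RPKM in both libraries, with 17.4% of its exonic bases in TMEM198B, a gene at 2.47 RPKM. The other listed MMPs, MMP21, MMP28 and MMP20, lay between 0.0597 and 0.310 RPKM.

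Genes for 9 MMPs lie side by side on chromosome 11 from 102520508 to 102955734, a span of 435 kb. Of these, 6 were listed and 3 were expressed, where 66.7% of all genes in the table were expressed. MMP3 at 22.8 RPKM stood next to MMP1 at 0.310 RPKM, and the pseudogene WTAPP1 holds 1.56% of the exonic bases of MMP3 and 7.61% of those of MMP1. The expressed genes were not adjacent: MMP7 lies at one end, MMP13 at the other, and MMP3 between them. MMP8, MMP12 and MMP27 of the cluster were not listed.

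**Figure D2:**
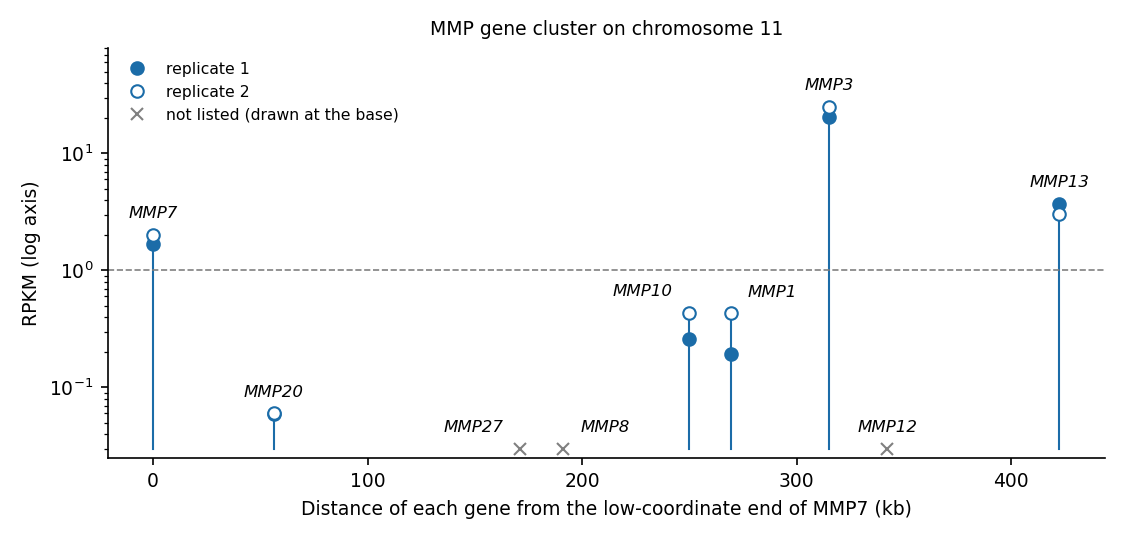
RPKM (log axis) of the MMP genes of chromosome 11 against their distance in kb from the low-coordinate end of MMP7, with replicate 1 filled, replicate 2 open and genes that were not listed as crosses at the base. MMP3 stands highest at 20.6 and 25.0 RPKM, and MMP10 and MMP1 beside it lie below the dashed line at 1 RPKM.

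Where 66.7% of all genes in the table were expressed, ADAMs with known protease activity were in 6 of 10 listed cases (60%). ADAM9, a widely expressed membrane protease on chromosome 8, led them with 41.1 RPKM in replicate 1 and 43.6 in replicate 2 (3821 and 3987 reads). ADAM19, which sheds neuregulins, had 20.4 and 20.9 RPKM. ADAM15, whose disintegrin domain binds integrins, had 19.9 and 19.3 RPKM. ADAM10, the main sheddase of Notch receptors and the amyloid precursor protein, had 15.0 and 15.4 RPKM. ADAM17, which releases tumour necrosis factor and epidermal growth factor receptor ligands, had 4.74 and 4.44 RPKM. ADAM10 stood 3.16 times above ADAM17 in replicate 1 and 3.47 times in replicate 2. IAH1, a gene at 3.03 RPKM, and AC073195.1 hold 13.6% of the exonic bases of ADAM17. ADAM12, a protease of muscle and bone development, stood at 6.17 ± 0.23 RPKM (783 and 813 reads).

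ADAM8, known from leukocytes, had 0.952 and 0.758 RPKM, just under the limit. ADAM28 stood at 0.430 ± 0.068 RPKM. ADAM20 and ADAM21, genes known from testis, had at most 4 reads in a library. Among ADAMs without protease activity, ADAM23, a neuronal adhesion protein that binds LGI proteins, stood at 7.34 ± 0.37 RPKM and its relative ADAM11 at 2.79 RPKM in both libraries. ADAM22, the third of these, had 0.694 and 0.787 RPKM, and ADAM32 had 0.519 and 0.428. The testis genes ADAM18 and ADAM29 had 1 or 2 reads per library. ADAM2, ADAM7, ADAM30 and ADAM33 were not listed. None of 3 listed male germ cell markers was expressed, beside 66.7% of all genes in the table. ACRV1 was the highest of the 3 at 0.525 RPKM.

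**Figure D3:**
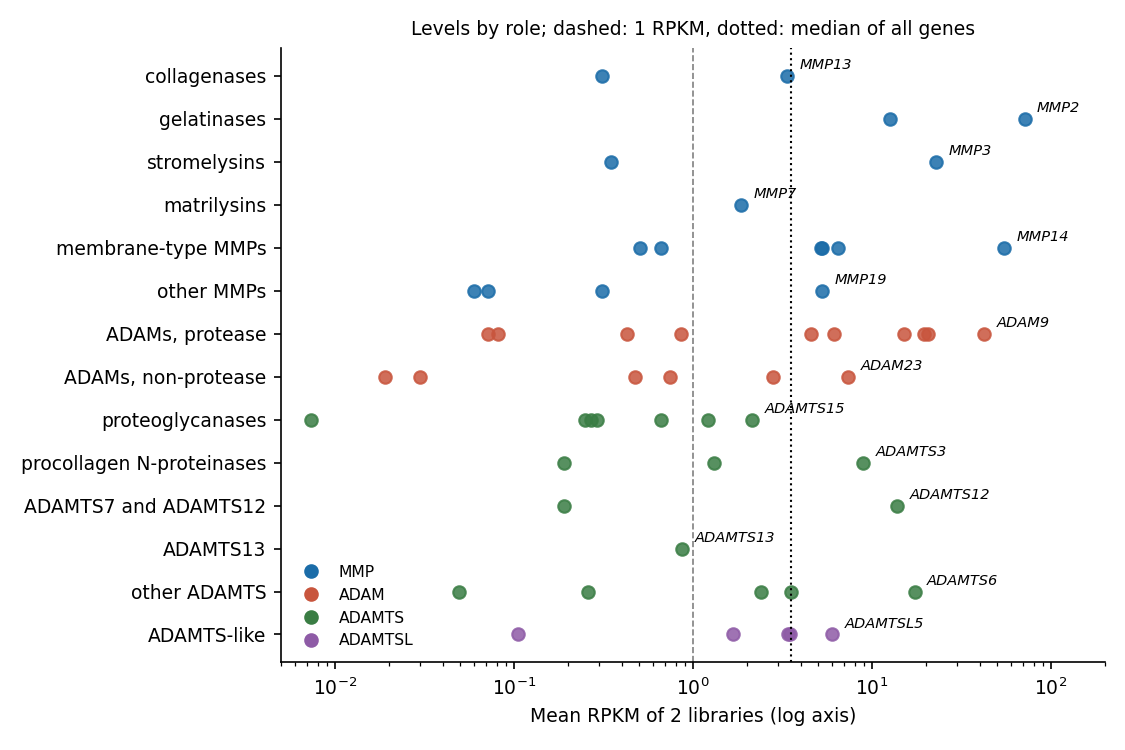
Mean RPKM of each member (log axis) by role, coloured by family, with the highest member of each role named, a dashed line at 1 RPKM and a dotted line at the median of all genes, 3.53 RPKM. Both gelatinases lie right of the dotted line, and all 7 proteoglycanases lie left of it.

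Of 18 listed genes for secreted ADAMTS proteases 8 were expressed (44.4%), where 66.7% of all genes in the table were. The median of the 18 genes, 0.765 RPKM, was the lowest of the 4 families. ADAMTS6, a protease with few known substrates, was highest with 16.3 RPKM in replicate 1 and 18.3 in replicate 2. Its close relative ADAMTS10, which acts on fibrillin microfibrils, had 3.74 and 3.34 RPKM. Of the pair that cuts cartilage oligomeric matrix protein, ADAMTS12 had 13.4 and 14.4 RPKM and ADAMTS7 only 0.175 and 0.208 RPKM (18 and 21 reads). ADAMTS12 thus stood 76.7 and 69.1 times above ADAMTS7. Among the enzymes that remove the N-propeptide of procollagens, ADAMTS3 had 8.71 and 9.22 RPKM, ADAMTS2 had 1.37 and 1.24, and ADAMTS14 had 0.258 and 0.124. ADAMTS16 stood at 2.42 ± 0.046 RPKM.

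Proteoglycanases, which cut aggrecan and versican, were expressed in 2 of 7 cases (28.6%), beside 66.7% of all genes in the table. The 7 had a median of 0.293 RPKM. ADAMTS15 had 2.13 and 2.14 RPKM, and ADAMTS1 had 1.29 and 1.14. ADAMTS5, the main aggrecanase of mouse cartilage, had 37 and 27 reads, or 0.286 and 0.212 RPKM, and ADAMTS4 had a single read in each library. ADAMTS8 stood at 0.662 ± 0.15, ADAMTS9 at 0.293 ± 0.023 and ADAMTS20 at 0.269 ± 0.067 RPKM. ADAMTS13, which cuts von Willebrand factor, was the highest member below the limit at 0.834 and 0.902 RPKM. ADAMTS17 and ADAMTS19 had 0.259 and 0.0495 RPKM, and ADAMTS18 was not listed.

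ADAMTS-like genes encode matrix proteins without a protease domain, and 4 of the 5 were expressed (80%), beside 66.7% of all genes in the table. ADAMTSL5 was highest with 5.49 and 6.53 RPKM. ADAMTSL1 had 3.11 and 3.89, ADAMTSL3 had 3.47 and 3.34, and ADAMTSL4 had 1.59 and 1.77 RPKM, with 14.4% of the exonic bases of ADAMTSL4 in other genes. ADAMTSL2, which binds latent TGF-beta binding proteins, had 7 and 6 reads. THSD4, for which RefSeq gives ADAMTSL6 as a synonym, is outside the rule by its symbol and had 0.346 RPKM. ADAMTSL1 spans 1004 kb on chromosome 9 and is the longest member.

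Along the order of levels, 20 of 29 neighbouring pairs of expressed members had library values that did not overlap, and 9 did. The order was set by the means of these same values, and the share among other genes was not computed. The count therefore does not show how well the order is resolved. MMP2, MMP14 and ADAM9 were each above the next gene in both libraries. MMP3 overlapped ADAM19, and ADAMTS10, ADAMTSL1, ADAMTSL3 and MMP13 overlapped in turn between 3.54 and 3.35 RPKM.

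Libraries were compared gene by gene on recovered reads with a 2-sided exact binomial test. This compares these libraries and not conditions. Of 30 members tested, 3 differed at an adjusted p under 0.05, all higher in replicate 2, where 1.73% of all genes were called and 1.05% were called higher in replicate 2. ADAMTSL1 had 554 and 681 reads, a ratio of replicate 2 over replicate 1 of 1.26 with a 95% counting interval of 1.12 to 1.41 (adjusted p = 0.00828, exact binomial test with Benjamini-Hochberg adjustment). ADAMTS6 had 1848 and 2041 reads, a ratio of 1.13 with an interval of 1.06 to 1.20 (adjusted p = 0.0167 in the same exact test). MMP3 had 504 and 604 reads, a ratio of 1.22 with an interval of 1.09 to 1.38 (adjusted p = 0.0492 in the same exact test). The adjusted p of MMP3 in the exact test was 0.0595 on library totals alone and 0.0677 when all genes were tested, so its call rests on the setting. At an unadjusted p under 0.05, 6 members and 12% of all genes differed, the others being ADAM9, ADAMTS12 and ADAMTSL5. When a common coefficient of variation of 2.70% beyond counting was allowed for, no member was called by the beta-binomial test and 9 genes in all were, with 3 members at an unadjusted p under 0.05. In that fit the adjusted p was 0.533 for ADAMTSL1, 0.864 for MMP3 and 1 for ADAMTS6. Among the 4 highest members the coefficient of variation between libraries was 0.123% for MMP2, 0.326% for MMP14, 4.12% for ADAM9 and 13.9% for MMP3. The values of MMP2 and MMP14 lay below the 1.51% and 1.76% that counting alone gives.

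**Figure D4:**
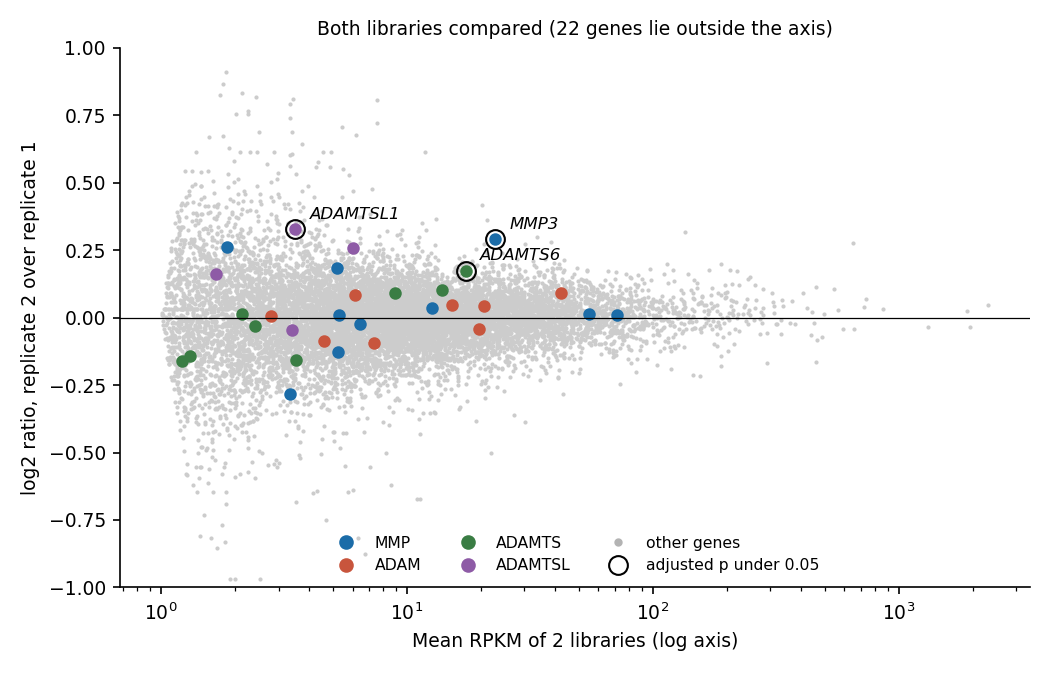
Log2 ratio of replicate 2 over replicate 1 against mean RPKM (log axis) for genes at 1 RPKM or more in both libraries, with the 30 expressed members coloured by family, other genes grey and rings at an adjusted p under 0.05. The 3 ringed genes, ADAMTSL1, MMP3 and ADAMTS6, lie above 0, and 22 genes lie outside the axis.

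Of 6 listed inhibitors of these enzymes 5 were expressed (83.3%), where 66.7% of all genes in the table were. The level of 1 inhibitor stood above every member. TIMP1, which blocks most MMPs, had 715 RPKM in replicate 1 and 731 in replicate 2, 1.90 and 1.89 times the summed level of all 56 members. That sum includes members without protease activity, and MMP genes held 50.2% of it. These are RNA levels, and neither protein nor inhibition was measured. TIMP2, which blocks MMP2 and also takes part in its activation by MMP14, had 50.7 and 54.7 RPKM. Per library that was 0.927 and 0.994 times the level of MMP14. TIMP3, which also blocks ADAM17 and several ADAMTS enzymes, had 20.8 and 20.7 RPKM. RECK, a membrane-anchored MMP inhibitor, stood at 4.46 ± 0.10 and the plasma protease inhibitor gene A2M at 13.5 ± 0.035 RPKM. TIMP4 had 2 reads in replicate 1 and 1 in replicate 2.

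Activating enzymes were expressed in part. FURIN, the convertase that removes propeptides of membrane-type MMPs, ADAMs and ADAMTS proteases, had 60.1 and 56.4 RPKM, MBTPS1 25.5 ± 0.91 and PCSK4 1.82 ± 0.31. Of 9 listed convertases 5 were expressed (55.6%), where 66.7% of all genes in the table were. In the plasminogen system, which activates several MMPs, PLAU, the urokinase gene, stood at 42.8 ± 2.1 RPKM, its receptor gene PLAUR at 19.7 ± 1.1 and PLAT, the tissue activator gene, at 17.9 ± 0.30. PLG and SERPINB2 were not listed. Partners that carry ADAM10 or ADAM17 to the cell surface were expressed in 8 of 9 cases (88.9%), beside that same 66.7%. TSPAN17 had 29.9 ± 1.7 RPKM, FRMD8 15.4 ± 0.60 and TSPAN5 12.2 ± 0.050. The inactive rhomboid genes RHBDF1 and RHBDF2, which escort ADAM17, had 10.8 ± 0.75 and 5.01 ± 0.48 RPKM, and TSPAN15, an ADAM10 partner, was the exception with 3 reads and 1 read.

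**Figure D5:**
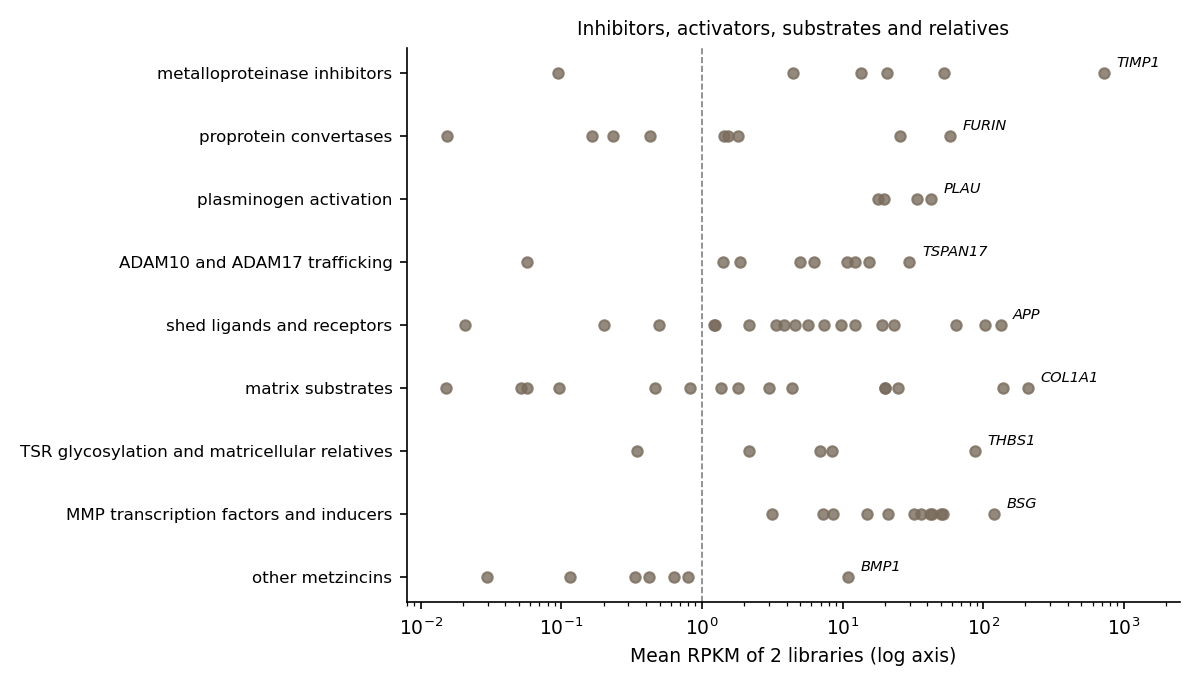
Mean RPKM (log axis) of listed genes in 9 lists of inhibitors, activators, substrates and relatives of the proteases, with the highest gene of each list named and a dashed line at 1 RPKM. TIMP1 at 723 RPKM lies furthest right, and BMP1 at 10.9 RPKM is alone above the line among other metzincins.

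Among known substrates of the proteases, 15 of 18 listed shed ligands and receptors (83.3%) and 9 of 15 listed matrix proteins (60%) were expressed. The share over all genes in the table was 66.7%. APP, cut by ADAM10, stood at 133 ± 2.1 RPKM, and the syndecan genes SDC4 and SDC1 stood at 103 ± 1.6 and 64.5 ± 1.0. HBEGF, a growth factor precursor released by ADAMs, had 12.2 ± 1.2 RPKM. TNF, the substrate that gave ADAM17 its other name, was not listed. Of the matrix genes COL1A1 had 209 ± 0.88 RPKM, the fibronectin gene FN1 139 ± 10.6 and the type IV collagen gene COL4A1 25.0 ± 1.2. ACAN, the aggrecan gene, stood at 1.80 ± 0.074 RPKM and VCAN, the versican gene, at 0.0962 ± 0.034. VWF had 0.462 ± 0.036 RPKM, and COMP was not listed.

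Regulators of MMP genes and relatives of the family completed the lists. All 12 transcription factor and inducer genes were expressed, led by BSG, which induces MMPs in neighbouring cells, at 119 ± 7.7 RPKM, then FOSL2 at 52.1 RPKM and JUND at 49.9 ± 5.2. THBS1, a thrombospondin, had 87.5 ± 0.20 RPKM, and the enzymes that place sugars on thrombospondin repeats, B3GLCT and POFUT2, had 8.40 ± 0.47 and 6.96 ± 0.61. Among other metzincins only BMP1, the procollagen C-proteinase, was expressed, at 10.9 ± 0.46 RPKM. PAPPA2 at 0.795 and PAPPA at 0.631 RPKM came next. Over all lists 63 of 85 listed partner genes were expressed (74.1%), where the share over all genes in the table was 66.7%. The counts of the single lists stand beside that same share.

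RefSeq gave a promoter entry for 41 genes that match the rule, 34 of them listed. Of these 41, 27 (65.9%) held GGGCGG on either strand within the 250 bases before the start. Over all 27305 genes with an entry, listed or not, 42.3% did. Of the 34 listed members 24 held it and 10 did not, and among all listed genes with an entry 8297 held it and 5189 did not. TATAAA on the gene's strand was found in 7 of the 41 (17.1%) and in 7.17% of the 27305 genes. TGAGTCA on either strand was found in 1 of the 41, MMP7 (2.44%), and in 4.16% of the 27305 genes. Among listed genes with an entry, TATAAA was in 5 members and 613 genes and absent from 29 members and 12873 genes. There TGAGTCA was in 1 member and 423 genes and absent from 33 members and 13063 genes. Of the listed members, 15 of 24 with GGGCGG and 4 of 10 without it were expressed. Among all listed genes these shares were 78.1% and 57.6%. Of the 5 members with TATAAA, MMP7 was expressed and MMP10, MMP20, MMP21 and ADAMTSL2 were not, and among all listed genes with TATAAA 51.2% were. Without TATAAA, 18 of 29 members (62.1%) and 71.1% of all listed genes with an entry were expressed. In MMP7 TATAAA begins at position -30 and TGAGTCA at -67 from the start, and in MMP10 TATAAA begins at -31. ADAM19 and ADAMTS6, both above 10 RPKM, held none of the 3 motifs. The median GC content of those 250 bases was 75.2% in expressed members and 62.4% in listed members below the limit, beside 65.2% and 59.6% in all genes. These are matches of letters, and neither binding nor the start used in these cells was measured. Some entries lie inside their gene: the 250 bases of ADAMTSL1 begin at 18473903, where GENCODE begins the gene at 17906563. Among the 22 listed members with no entry are MMP2, MMP3, MMP9, MMP13 and ADAM9.

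Markers were read to check the label. Of 8 listed osteoblast and mesenchymal markers 6 were expressed, led by SPARC at 280 ± 3.7 RPKM, and COL1A2 and BGLAP were below the limit. The osteoblast markers SP7 and IBSP were not listed. Markers of other cell types that were expressed numbered 1 of 6 haematopoietic, CD3D at 1.11 RPKM, 4 of 8 chondrocyte, led by SOX9 at 30.4 ± 2.8, and 1 of 5 endothelial, EGFL7 at 19.9 ± 0.94. They also numbered 5 of 7 epithelial, led by KRT18 at 42.6 ± 1.5, and 5 of 7 neuronal, led by SNAP25 at 5.73 ± 0.31. The others expressed were COL11A1, MATN3, ACAN, KRT8, MUC1, EPCAM, CLDN4, SLC17A7, SYP, TUBB3 and MAP2. Over all genes in the table the share expressed was 66.7%. PTPRC, the pan-leukocyte gene, had 0.145 RPKM, COL2A1 0.0575 and CDH5 0.0624. The part of other cells in the levels of MMP9, ADAM8 or ADAM23 was not tested.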

How the data were processed

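Per the file headers, the deposited values are RPKM, 1 column per library, and the authors' table held no value at 0. The tools named are featureCounts, HISAT2 and Trim Galore and the builds GRCh38.p13 and hg38, per the submitters' processing notes. Their versions, the annotation, the strand setting and filters were not given in the sources used here. Members and gene lists were chosen with earlier results of these data known.

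Of 18141 symbols, 58 with several rows were dropped, none of them a member, and symbols that share both values were counted once (17912 entries). Genes not in the table are called not listed. Of 70 RefSeq genes that match the rule, 14 were not listed, 3 of them pseudogenes.

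Dividing replicate 1 by replicate 2 gave a quotient of integers for 100% of genes (relative tolerance 2e-13), and 1019 genes with equal reads gave the library totals. Reads per gene were then fixed by bringing the exonic length near that of GENCODE release 29 (GRCh38), within 10% for 54 of 56 members. Coordinates and exon overlaps on either strand are GENCODE's. Libraries were compared at 1 RPKM or more in both, over 11785 genes, with a 2-sided exact binomial test, TMM scaling (trimmed mean of M values) and Benjamini-Hochberg adjustment. Intervals are exact (Clopper-Pearson) at 95% and cover counting error only. On data simulated for 16749 genes with a 3% coefficient of variation beyond counting, the binomial test called 99% of the genes changed 2-fold up or down, all drawn at a mean of at least 100 reads, and 309 unchanged genes, and the beta-binomial test 99% and 6. Named were all expressed members, the 5 highest below the level, the collagenases and gelatinases, genes called between libraries and the 3 highest of each partner list. Others were named after their values were seen. A gene that this rule names in the plasminogen list is not reported here. A planned search for protein motifs was not run. Alternatives covered the level, the unit, the pseudocount, the scaling and single libraries. Scripts ran in Python 3.11.15 with pandas 2.3.3, scipy 1.17.1 and numpy 2.4.6.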

Additional observations from a re-analysis of the deposited data

How the results depend on the processing

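No paired analysis was possible because the data hold 1 group. The 30 expressed members numbered between 25 and 43 under every alternative except 5 RPKM, which left 17. At 5 RPKM there were 3 ADAMTS genes, 1 ADAMTSL gene, 2 convertases, 5 partners of ADAM10 and ADAM17, 9 shed ligands and receptors and 5 matrix substrates. At 1 CPM there were 15 ADAMTS genes, 8 convertases and 5 other metzincins, and at 1 TPM 13 ADAMTS genes and 5 other metzincins. At 0.5 RPKM there were 3 other metzincins. These counts were taken at other limits, and those in CPM are also not divided by length. In replicates 1 and 2, TPM was 4.66 and 4.67 times RPKM, so 1 TPM is a lower limit than 1 RPKM. The parts of limit and length in these counts were not tested. The median member level, 1.31 on the log2(RPKM + 1) scale, was 0.66 with a pseudocount of 0.1, 0.66 with the genes not listed taken as 0 and 2.13 over the 44 members with at least 10 reads in both libraries. With either library left out it was 1.31, and no count of expressed genes changed. The median of all genes was 1.86 with a pseudocount of 0.1, and was not computed with genes not listed taken as 0. Of the 3 members called between libraries, a limit of 0.01 on the adjusted p left 1, and allowing for a common coefficient of variation left 0. The cause was not tested. Leaving out members with at least 10% of exonic bases shared, an alternative chosen after seeing the data, left 25 expressed. Members with under 10 reads in a library, 12 of the 26 below the limit, have levels set by a few reads.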
